A study of Mus musculus with 6 samples.

Results

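The calponins, the transgelins and other genes known as smooth muscle markers were followed in C2C12, an established line of mouse myoblasts whose cells fuse to skeletal myotubes in low serum. The 9 genes were *Tagln*, *Tagln2*, *Cnn1*, *Cnn2*, *Cnn3*, *Cald1*, *Myh11*, *Smtn* and *Lmod1*, picked by symbol from the 55401 genes of the count matrix, and each symbol stood on a single row. RNA sequencing covered 6 libraries, 3 control and 3 *Phf2* KO, all of cells 2 d post differentiation in medium with horse serum. *Phf2* encodes a histone demethylase. The KO cells received a pool of 4 Cas9 guide plasmids against *Phf2*, were sorted by a fluorescent reporter and were not cloned, so each library holds a mixture of edited and possibly unedited cells. The control cells, labelled wild type, were mock cells that carried the plasmid without a matching guide. The 3 libraries of a group were wells of a single experiment from a single pool, so p-values measure the spread between wells, and differences between the pools cannot be told apart from effects of *Phf2*.

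These genes encode proteins that bind actin filaments or form the contractile apparatus of smooth muscle. Transgelins and calponins share the calponin homology domain and bind along actin filaments, caldesmon restrains the actomyosin ATPase, smoothelin associates with stress fibers, leiomodin nucleates actin filaments, and *Myh11* encodes the myosin heavy chain that defines mature smooth muscle. In smooth muscle many of them are driven by serum response factor (SRF), which binds the CArG box in their promoters together with cofactors of the myocardin family. Several members, among them *Cnn2*, *Cnn3*, *Tagln2* and *Cald1*, are also made by non-muscle cells and by myoblasts.

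Estimated counts summed to between 52526109 and 67502788 per library. *Phf2* itself had 102.4, 95.5 and 104.6 CPM (counts scaled to library size with TMM factors) in the control libraries and 41.1, 37.6 and 38.6 in the KO libraries, or 38.8% of the control level, with an adjusted p of 8.32e-09 by the quasi-likelihood test of edgeR. All further adjusted p-values are from this test with Benjamini-Hochberg adjustment over the 17310 genes tested, and a gene was called at an adjusted p under 0.05. The *Phf2* level above is that of mRNA and not of PHF2 protein. The paper reports PHF2 protein as strongly reduced in the KO myoblasts, and protein was not measured in these libraries.

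All 9 members passed the filter on low counts. *Tagln*, *Cnn2*, *Cnn3* and *Cald1* rose in *Phf2* KO cells and *Tagln2* fell, while *Cnn1*, *Lmod1*, *Smtn* and *Myh11* did not pass the threshold. In all, 4 members were called higher and 1 lower, against 3.22% of all genes tested called higher, 3.26% called lower and 6.48% called in either direction. With the replicate number as a block 5 members were called higher and 1 lower (7.6% of all genes called, 3.74% higher and 3.86% lower), and with exactTest of edgeR, the test that the study's methods name, 3 higher and 1 lower (6.52%, 3.1% and 3.42%). The called members changed by small amounts, between 0.19 and 0.26 on the log2 scale in either direction, compared with a median size of 0.325 over all called genes. The median log2 fold change of the 9 members was 0.19 and that of all genes tested was -0.00096. Highly expressed genes are called more often: 7 members had a mean of at least 40 CPM, and of the 5334 genes at that level 7.42% were called higher and 5.7% lower. In 4 members every KO library lay above every control library and in 2 every KO library lay below, where 12.9% and 12.2% of all genes tested did so.

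**Figure D1:**
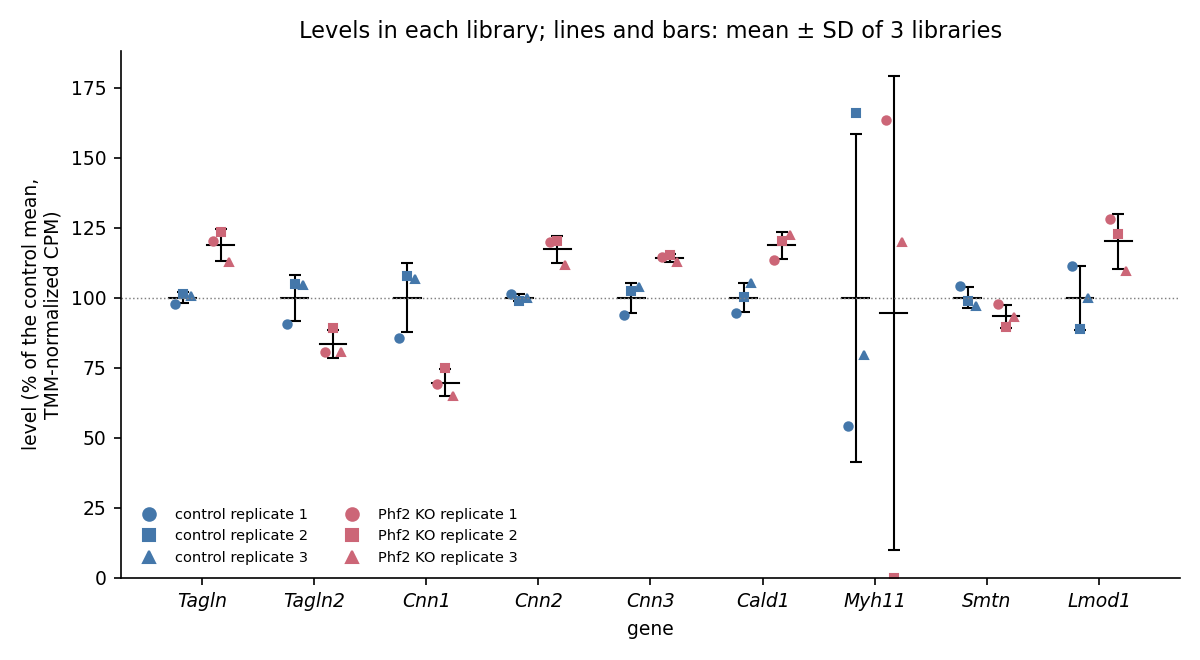
Level of each of the 9 members as a percentage of its control mean (vertical axis, from TMM-normalized CPM) in the 3 control (blue) and 3 *Phf2* KO (red) libraries, with a symbol per replicate number and lines and bars for the mean ± SD. The KO points of *Tagln*, *Cnn2*, *Cnn3* and *Cald1* all sit above the control points, those of *Tagln2* and *Cnn1* all sit below, and those of *Smtn*, *Lmod1* and *Myh11* overlap with the controls.

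*Tagln*, the transgelin of smooth muscle (ENSMUSG00000032085.5, chr9:45929619-45936058, minus strand, GRCm38), had 242.5, 251.7 and 249.7 CPM in the control libraries and 298.3, 306.1 and 279.4 CPM in the *Phf2* KO libraries. The groups did not overlap, and the gap between the lowest KO and the highest control library was wider than the range within the control libraries. The mean rose from 248.0 ± 4.81 to 294.6 ± 13.8 CPM (SD, n = 3), which is a rise of 0.25 on the log2 scale (SE 0.045, adjusted p = 0.00429 by edgeR). It passed the threshold in all 6 fits that left out a library. On the opposite strand, *Gm48529* and *Pcsk7* overlap *Tagln*. *Gm48529*, at 14.2 to 20.2 CPM, rose by 0.42 on the log2 scale (adjusted p = 0.00982 by edgeR), and *Pcsk7* had a log2 fold change of 0.04 (adjusted p = 0.787). The library kit keeps strand, but whether the counting used it is not given in the sources used here, so reads of *Tagln* and *Gm48529* cannot be told apart.

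*Tagln2*, the broadly expressed transgelin (ENSMUSG00000026547.15, chr1:172500047-172507380, plus strand), moved the other way. It had 92.5, 107.3 and 106.8 CPM in the control libraries and 82.4, 91.3 and 82.3 CPM in the KO libraries. Every KO library lay below every control library, although KO replicate 2 came close to control replicate 1. The mean fell from 102.2 ± 8.41 to 85.3 ± 5.19 CPM (SD, n = 3), with a log2 fold change of -0.26 (SE 0.063, adjusted p = 0.0274 by edgeR). This call was lost in most fits that left out a library: the adjusted p was 0.148 without control replicate 2, 0.0803 without control replicate 3, 0.0956 without KO replicate 1 and 0.130 without KO replicate 3. The log2 fold change was -0.33 to -0.22 over all 6 such fits.

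The deposited TPM tables gave a different picture of *Tagln2*. TPM is a level per transcript length scaled within a library, and the tables list a gene under its reference row and the same reads again under loci that StringTie assembled. In the reference rows *Tagln2* had 51.1, 100.01 and 67.0 TPM in the control libraries and 64.3, 105.5 and 60.4 TPM in the KO libraries. These groups overlapped, the SD of each was 25.0 TPM, and the log2 ratio of the means was 0.08, opposite in sign to the counts. In the rows of the assembled locus it had 127.4, 156.1 and 164.8 TPM in the control libraries and 123.9, 129.4 and 128.5 TPM in the KO libraries. There the groups overlapped through control replicate 1, and the log2 ratio of the means was -0.23. The direction of *Tagln2* thus depended on which rows were read, whereas *Tagln* had the same values in both kinds of row.

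**Figure D2:**
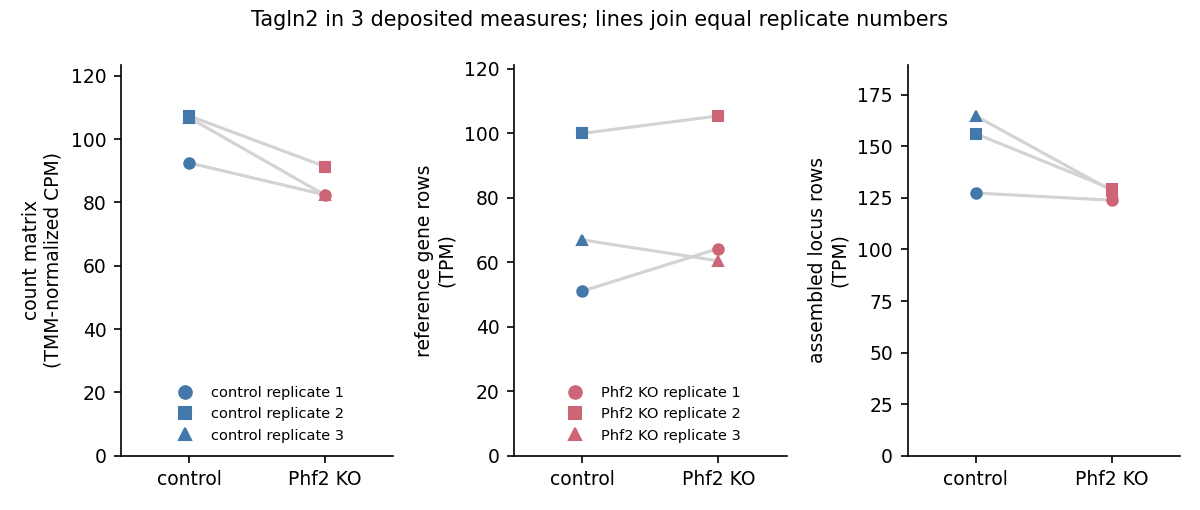
*Tagln2* in 3 deposited measures, namely CPM of the count matrix, TPM of the reference gene rows and TPM of the assembled locus rows (vertical axes, each starting at 0), with a point per library and lines that join equal replicate numbers. The KO points lie below the control points in the count matrix, overlap with them in the reference rows, and lie at 123.9 to 129.4 TPM against 127.4 to 164.8 TPM in the assembled rows.

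Read per length, *Tagln* was the main transgelin transcript in every library. In the assembled rows it made up 67.9% to 72.5% of the summed transgelin TPM in the control libraries and 75.9% to 77.1% in the KO libraries, so the groups did not overlap. In the reference rows its share was 77.6% to 86.8% in the control and 80.2% to 87.0% in the KO libraries, and the groups overlapped.

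*Cnn2* and *Cnn3*, which are widely expressed outside smooth muscle, rose in *Phf2* KO cells, and *Cnn1*, the calponin of differentiated smooth muscle, had its lower values in the KO libraries without passing the threshold. The promoter sequence upstream of each calponin is shown to set these genes side by side, from RefSeq (GRCm38.p6, plus strand), ending at the base before the annotated gene start. Of the 9 members 7 had a RefSeq promoter entry, and *Tagln* and *Myh11* had none. Capitals mark a match to the CArG box, searched on both strands as CCWWWWWWGG, where W is A or T. Variants of this pattern were not searched.
Cnn1, chr9:22099003-22099215: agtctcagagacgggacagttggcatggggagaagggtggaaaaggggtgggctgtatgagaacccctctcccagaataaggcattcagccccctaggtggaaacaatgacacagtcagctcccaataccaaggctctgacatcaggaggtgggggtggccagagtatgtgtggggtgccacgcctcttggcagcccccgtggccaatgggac
Cnn2, chr10:79988350-79988583: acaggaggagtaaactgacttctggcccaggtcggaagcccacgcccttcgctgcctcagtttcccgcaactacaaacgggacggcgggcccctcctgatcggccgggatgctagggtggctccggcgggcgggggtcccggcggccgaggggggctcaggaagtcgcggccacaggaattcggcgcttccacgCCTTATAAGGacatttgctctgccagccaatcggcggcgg
Cnn3, chr3:121426291-121426496: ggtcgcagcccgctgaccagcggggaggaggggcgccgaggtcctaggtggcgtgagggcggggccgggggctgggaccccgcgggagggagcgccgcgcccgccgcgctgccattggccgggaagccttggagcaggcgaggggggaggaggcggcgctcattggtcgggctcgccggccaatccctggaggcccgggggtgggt

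The *Cnn2* sequence holds the CArG box CCTTATAAGG, from base -56 to base -47 relative to the RefSeq start site. It was the only match to that exact pattern within 250 bases upstream of the start sites of the 7 members with an entry. Of the 32851 promoter windows of that length 1.47% held such a match. *Tagln* and *Myh11*, without an entry, could not be searched. The MCAT motif CATTCC, which TEAD factors bind, was found in the windows of *Tagln2*, *Lmod1*, *Smtn* and *Cald1*, against 12.6% of all windows. The matches of *Tagln2* and *Smtn* lie upstream of a RefSeq start site but inside the gene as annotated by GENCODE. The E-box CAGCTG was found in that of *Lmod1*, against 13.0% of all windows. A match of letters is not a measured binding site, and no factor binding was analysed here.

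*Cnn2* (ENSMUSG00000004665.10, chr10:79988584-79996062, plus strand) had 415.2, 405.6 and 408.8 CPM in the control libraries and 491.2, 492.3 and 457.7 CPM in the *Phf2* KO libraries. The control libraries lay close together and all KO libraries were above them. *Cnn2* rose from 409.9 ± 4.89 to 480.4 ± 19.7 CPM (SD, n = 3), with a log2 fold change of 0.23 (SE 0.041, adjusted p = 0.00423 by edgeR), and passed in all 6 fits that left out a library.

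*Cnn3* (ENSMUSG00000053931.11, chr3:121426497-121458207, plus strand) had 1010.3, 1099 and 1116 CPM in the control libraries and 1231, 1239.8 and 1213 CPM in the KO libraries. The groups did not overlap. It rose by 0.19 on the log2 scale (SE 0.041, adjusted p = 0.0119 by edgeR). The call was lost without control replicate 2 (adjusted p = 0.0557), without KO replicate 2 (adjusted p = 0.0786) and with exactTest (adjusted p = 0.0711).

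*Cnn1* (ENSMUSG00000001349.5, chr9:22099216-22109630, plus strand) was present at a far lower level. It had 4.73, 5.94 and 5.89 CPM in the control libraries and 3.82, 4.13 and 3.59 CPM in the KO libraries. Each KO library was below each control library. The means were 5.52 ± 0.682 and 3.85 ± 0.272 CPM (SD, n = 3), and the log2 fold change was -0.52 with a 95% interval of -0.87 to -0.17 and an adjusted p of 0.0781 by edgeR. *Cnn1* passed in none of the 11 alternative fits with all libraries, where the adjusted p was 0.0593 to 0.212, nor in any fit that left out a library.

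Per length, *Cnn3* carried most of the calponin transcripts. It made up 74.1% to 76.4% of the summed calponin TPM in the control libraries and 74.9% to 76.0% in the KO libraries, and *Cnn2* made up 23.2% to 25.6% and 23.8% to 24.9%. The share of *Cnn1* was 0.318% to 0.367% in the control and 0.181% to 0.229% in the KO libraries. The shares of *Cnn2* and *Cnn3* overlapped between the groups and that of *Cnn1* did not. The summed calponin level was 1422 to 1553 TPM in the control and 1714 to 1752 TPM in the KO libraries.

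*Cald1*, which encodes caldesmon (ENSMUSG00000029761.16, chr6:34598500-34775473, plus strand, with 18 annotated transcripts), had 828.1, 876.7 and 919.2 CPM in the control libraries and 991.3, 1052 and 1070.1 CPM in the KO libraries. Each KO library was above each control library. *Cald1* rose from 874.7 ± 45.6 to 1038 ± 41.3 CPM (SD, n = 3), with a log2 fold change of 0.25 (SE 0.045, adjusted p = 0.00429 by edgeR). It passed in all 6 fits that left out a library. The size depended on the measure: the KO level was 118.7% of control in CPM but 134.3% in the TPM of the reference rows and 132.5% in that of the assembled rows, and limma on log2(TPM + 1) gave an adjusted p of 0.062. Long and short caldesmon isoforms were not separated here.

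*Smtn*, which encodes smoothelin (ENSMUSG00000020439.17, chr11:3517523-3540612, minus strand), had 147.0, 139.6 and 137.0 CPM in the control libraries and 137.8, 126.3 and 131.6 CPM in the KO libraries. The groups overlapped, with KO replicate 1 above control replicate 3. The log2 fold change was -0.10 with a 95% interval of -0.20 to 0.0041 (adjusted p = 0.280 by edgeR), so any decrease beyond that lower bound lies outside the interval.

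*Lmod1*, the leiomodin of smooth muscle (ENSMUSG00000048096.7, chr1:135324807-135368065, plus strand), had 47.1, 37.5 and 42.2 CPM in the control libraries and 54.2, 51.9 and 46.2 CPM in the KO libraries. The lowest KO library lay below the highest control library, while each KO library lay above the control library with the same replicate number. The log2 fold change was 0.26 (SE 0.084, adjusted p = 0.0937 by edgeR). With the replicate number as a block the adjusted p was 0.0361, with DESeq2 it was 0.0372, and without control replicate 1 it was 0.0307.

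*Myh11* (ENSMUSG00000018830.10, chr16:14194535-14291372, minus strand) was barely detected. Its estimated counts were 8, 25 and 12 in the control libraries and 26, 0 and 21 in the KO libraries, and a read pair adds about 4 to such a count. The groups overlapped. The log2 fold change was -0.06 with a 95% interval of -2.07 to 1.94 (adjusted p = 0.986 by edgeR), so a difference was not detectable at this depth. The sign was positive without control replicate 2 (0.51) and without KO replicate 2 (0.50).

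**Figure D3:**
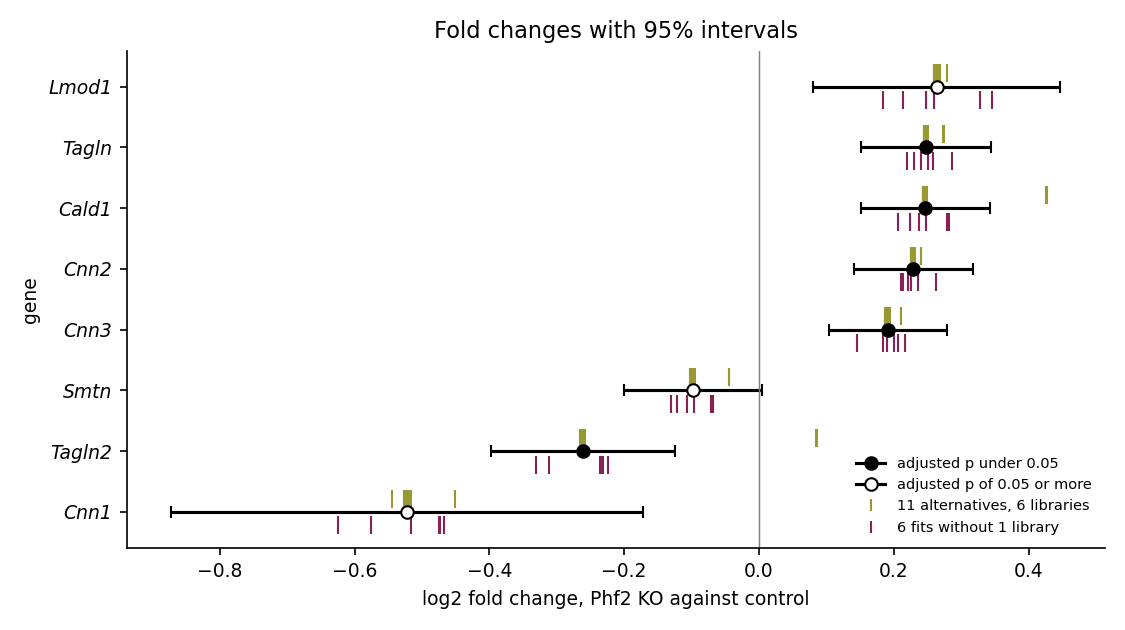
Log2 fold change of 8 members, *Phf2* KO against control (horizontal axis; *Myh11* is not drawn), with 95% intervals from the quasi-likelihood fit of edgeR, filled points for an adjusted p under 0.05, and ticks for the 11 alternative fits (above each point) and the 6 fits without a library (below). The ticks of *Tagln2* at 0.085 and 0.087 and those of *Cald1* near 0.43 are the fits on TPM, and no other tick lies on the opposite side of 0 from its point.

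Levels of different genes were compared in TPM only. In the reference rows of the control libraries *Cnn3* was highest at 1131 ± 68.9 TPM (SD, n = 3). *Cald1* at 405.8 ± 36.3, *Cnn2* at 359.5 ± 5.16 and *Tagln* at 344.3 ± 6.76 TPM followed, and the lowest *Cald1* library, at 363.9 TPM, was only just above the highest *Cnn2* library, at 363.7 TPM. *Smtn* at 95.5 ± 9.46 and *Tagln2* at 72.7 ± 25.0 TPM overlapped, and in the assembled rows *Tagln2*, at 149.4 ± 19.6 TPM, was above *Smtn*, at 98.5 ± 5.08 TPM. *Lmod1* at 23.1 ± 2.68, *Cnn1* at 5.21 ± 0.588 and *Myh11* at 0.0705 ± 0.0440 TPM came last, each clear of its neighbours. In the KO libraries the order was the same, but *Cnn2*, at 414.7 to 433.4 TPM, overlapped with *Tagln*, at 404.8 to 428.2 TPM. *Cnn1* and *Myh11* were thus the lowest of the 9, while other members named for smooth muscle, *Tagln*, *Smtn* and *Lmod1*, were higher.

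**Figure D4:**
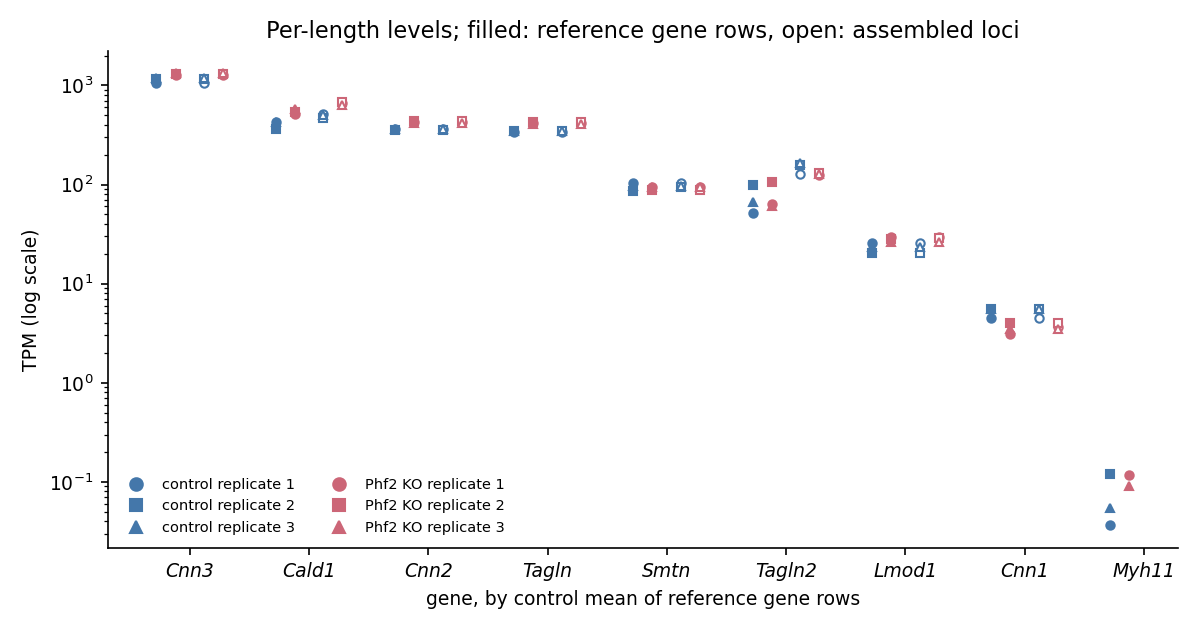
TPM of the 9 members (vertical log axis) in each control (blue) and *Phf2* KO (red) library, with a symbol per replicate number, filled for rows of reference genes and open for assembled loci. *Cnn3* lies above the rest and *Myh11*, which has no assembled locus here and is not drawn for KO replicate 2 at 0 TPM, lies lowest, while *Tagln2* differs most between filled and open symbols.

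The genes around the members were read from 4 lists. Of 29 contractile partners known from smooth muscle, 26 were tested, 7 rose and 4 fell, with a median log2 fold change of 0.09. Over all genes tested 3.22% were called higher and 3.26% lower. At a mean of at least 40 CPM, the level of most of these partners, the shares were 7.42% and 5.7%. The smooth muscle actins rose: *Acta2* went from 3029 ± 39.4 to 3400.2 ± 80.3 CPM (SD, n = 3; log2 fold change 0.17, adjusted p = 0.00525 by edgeR) and *Actg2* by 0.31 (adjusted p = 0.0012). *Csrp2* and *Csrp1*, LIM proteins of the actin cytoskeleton, rose by 0.51 (adjusted p = 8.96e-05) and 0.21 (adjusted p = 0.0067). The regulatory light chain *Myl9* rose by 0.24 (adjusted p = 0.0108). Among the genes that fell were *Des*, the muscle intermediate filament (log2 fold change -0.37, adjusted p = 3.24e-04 by edgeR), *Tpm2*, a tropomyosin (-0.27, adjusted p = 0.0209), and *Synpo2*, an actin-binding protein of the Z-disc (-0.20, adjusted p = 0.0396). *Des*, *Tpm2* and *Synpo2* are also made by skeletal muscle. Actin genes have near-identical coding sequences, so how the counting split reads between *Acta2*, *Actg2*, *Actb*, *Actg1* and *Acta1* is uncertain.

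The count of partners that rose was 4 without control replicate 2 and 3 without KO replicate 2. The adjusted p of *Acta2* was 0.0602 without KO replicate 2 and 0.0961 with exactTest. That of *Myl9* was 0.0787 without control replicate 2, 0.0571 without control replicate 3 and 0.0584 without KO replicate 2, and that of *Csrp1* was 0.0592 without control replicate 2 and 0.0512 without KO replicate 2. The number of partners that fell was 2 without control replicate 1, control replicate 2, KO replicate 2 or KO replicate 3. *Tpm2* lost its call in the same 4 fits (adjusted p = 0.0778 to 0.202), and *Synpo2* in every fit but that without control replicate 3 (0.0644 to 0.212). *Synpo2* was no longer past the threshold with the replicate block (adjusted p = 0.0544).

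Of the 13 genes for SRF, its cofactors and its regulators, 12 were tested, 2 rose and none fell (0 lower also at an unadjusted p under 0.05, and 0 by exactTest, DESeq2 and limma-voom), with a median log2 fold change of 0.07. Among all genes tested 3.22% were called higher and 3.26% lower. At a mean of at least 40 CPM, the level of most of these genes, the shares were 7.42% and 5.7%. *Srf* had a log2 fold change of 0.09 (adjusted p = 0.477 by edgeR), and the myocardin-related cofactors *Mrtfa* and *Mrtfb* had 0.01 (adjusted p = 0.949) and 0.00 (adjusted p = 0.992). The signs of *Mrtfa* and *Mrtfb* turned in fits that left out a library. That of *Mrtfb* also turned with no filter and with the CPM filter. *Myocd*, the cofactor that drives smooth muscle differentiation, was listed at 0 in 5 libraries and at 0.133 CPM in KO replicate 3. *Fhl2*, a LIM-only cofactor, rose by 0.23 (adjusted p = 0.0343 by edgeR) and *Elk3*, a ternary complex factor, by 0.16 (adjusted p = 0.0474). Limma-voom called neither, and neither call held over the fits that left out a library. *Fhl2* passed without control replicate 3 and in no other such fit (adjusted p = 0.0616 to 0.189), and *Elk3* in none of them (0.0906 to 0.134). Over these 6 fits the log2 fold change was 0.17 to 0.27 for *Fhl2* and 0.14 to 0.18 for *Elk3*. With the replicate block *Elk3* had an adjusted p of 0.0535.

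All 15 targets of SRF and its myocardin-related cofactors outside smooth muscle were tested, 5 rose and none fell (1 lower at an unadjusted p under 0.05, and 0 by exactTest, DESeq2 and limma-voom), with a median log2 fold change of 0.17. Among all genes tested 3.22% were called higher and 3.26% lower. At a mean of at least 40 CPM, the level of most of these targets, the shares were 7.42% and 5.7%. *Ccn2*, a secreted matricellular protein, rose most, from 276.0, 285.0 and 312.3 CPM in the control libraries to 452.8, 418.3 and 423.4 CPM in the KO libraries (log2 fold change 0.57, adjusted p = 3.22e-05 by edgeR). *Wdr1*, which promotes filament disassembly, rose by 0.27 (adjusted p = 6.76e-04), *Tes*, an adhesion protein, by 0.26 (adjusted p = 0.00454), and the cytoplasmic actins *Actb* and *Actg1* by 0.17 and 0.16 (adjusted p = 0.00671 and 0.00547). The count was 3 without control replicate 2, without KO replicate 2 and with exactTest, where *Actb* and *Actg1* were past the threshold no longer (adjusted p = 0.0578 to 0.0995), and it was 10 without control replicate 3.

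Of 8 paralogs of the members 6 were tested. *Myh10*, a non-muscle myosin heavy chain, rose from 332.5, 324.6 and 328.2 CPM to 464.0, 433.7 and 472.3 CPM (log2 fold change 0.48, adjusted p = 3.18e-05 by edgeR), and *Lmod3*, the leiomodin of skeletal muscle thin filaments, fell by 0.59 on the log2 scale (adjusted p = 0.004). *Lmod1* and *Lmod3* thus had log2 fold changes of opposite sign, and the difference between them was not tested. In the 4 lists together 15 of 59 tested genes were called higher and 5 lower, with a median log2 fold change of 0.09. The shares over all genes tested were 3.22% higher and 3.26% lower. For those averaging 40 CPM or more, where most tested list genes lie, the shares were 7.42% and 5.7%. Earlier results of these data were known when the lists were chosen, so the pooled counts are descriptive.

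**Figure D5:**
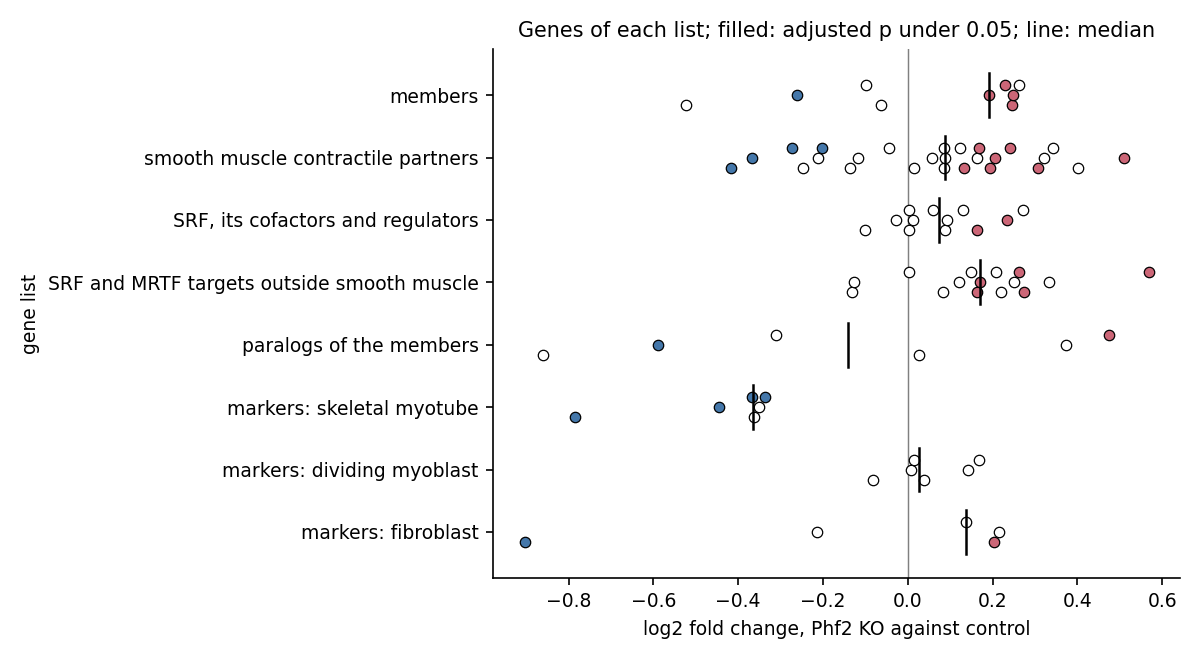
Log2 fold change, *Phf2* KO against control (horizontal axis), of the tested genes of the members, the 4 lists and 3 marker lists, with a point per gene, filled (red for higher, blue for lower) at an adjusted p under 0.05, and a line at each list's median. Filled points lie above 0 in the lists of SRF regulators and SRF targets (2 and 5 genes), on both sides in the contractile partners (7 and 4) and the paralogs (1 and 1), and below 0 in the myotube markers (4 genes).

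Marker genes of muscle and other cells were also read, beside 3.22% of all genes tested called higher and 3.26% lower. At a mean of at least 40 CPM these shares were 7.42% and 5.7%. All smooth muscle cell markers also stand in the lists above, and *Des* is among the contractile partners. Their calls are the same ones again and add no further evidence. Of 6 smooth muscle cell markers 4 were tested, 2 rose (*Acta2* and *Actg2*) and 1 fell (*Synpo2*), their summed level was 3327 to 3412 CPM in the control and 3638 to 3803 CPM in the KO libraries, and *Myocd* and *Kcnmb1* stayed under 1 CPM in every library. *Acta2* made up most of that sum, while the defining genes *Myocd* and *Myh11* were at or near 0. All 6 skeletal myotube markers had every KO library below every control library, as 12.2% of all genes tested did. Their log2 fold changes were -0.78 to -0.34. Of these 4 were called lower, namely *Ckm*, *Myh3*, *Des* and *Myog*. All 6 were lower at an unadjusted p under 0.05, and 6 were called by exactTest, DESeq2 and limma-voom. The summed level was 6560 to 7699.8 CPM in the control and 5291 to 5812 CPM in the KO libraries. Of 6 fibroblast markers *Col1a1* rose by 0.20 (adjusted p = 0.0118 by edgeR) and *Dpt* fell by 0.90 (adjusted p = 0.00737), with sums of 4809 to 5272 CPM and 5515 to 6068 CPM, and *Thy1* was at 0 in every library. *Col1a1*, with means of 4487 CPM in the control and 5167 CPM in the KO libraries, made up most of these sums. Its call was lost without control replicate 1, control replicate 3 or KO replicate 2 (adjusted p = 0.0592 to 0.118), that of *Myh3* without control replicate 1, KO replicate 1 or KO replicate 3 (0.0791 to 0.143), and that of *Myog* without control replicate 1, control replicate 2, KO replicate 2 or KO replicate 3 (0.0768 to 0.129). None of the 6 markers of dividing myoblasts passed the test of edgeR (0 at an unadjusted p under 0.05, and 0 by exactTest, DESeq2 and limma-voom), and their sums overlapped, at 208 to 226 CPM in the control and 206 to 227 CPM in the KO libraries. Fewer cells of a type and less RNA per cell cannot be told apart in such libraries, and the part of the myotube and fibroblast genes in the members' changes was not tested.

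The genes whose pattern over the 6 libraries lay nearest to a member were found by the root mean square difference of mean-centered log2 CPM, among genes whose mean was 5 CPM or higher. For *Tagln* these were *Phtf1* (0.012), *Fbxl7* (0.0219) and *Ttyh3* (0.0261). For *Tagln2* they were *Gm7336* (0.0211), *Aldoa* (0.0285) and *Gapdh-ps15* (0.0293), of which *Gapdh-ps15* is a pseudogene that can share reads with its parent gene. For *Cnn1* they were *Fmo1* (0.0622), *Itga10* (0.0634) and *Lgals3* (0.0658). These are descriptions over 6 libraries of 10922 or 10923 genes compared, and genes of a similar fold change are near each other by construction.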

How the data were processed

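RNA sequencing of 6 libraries, 3 control and 3 *Phf2* KO, was analysed from the count matrix and the tables of single libraries. From poly(A) RNA, directional libraries were read as paired ends of 150 bp. HISAT2 (mm10 genome) and StringTie were the aligner and counter used by the authors; tool versions and the strand setting are not given in the sources used here. The deposited counts are whole-number estimates, not scaled by library size, at 74.98 to 74.99 covered bases per count, so they are not tallies of reads. The deposited tables hold TPM, a signal the authors scaled within each library, and coverage, the authors' read depth per base, used only to work out that unit; their FPKM values were not used. Rows of reference genes were read, and assembled loci on the same strand that cover at least 50% of a gene were an alternative chosen after seeing the data. Coordinates are from GENCODE M21 (GRCm38), in which 54349 of the 55401 gene identifiers were found.

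Counts were tested in R 4.3.3 with edgeR 4.0.16 (filterByExpr with a minimum count of 10, TMM, robust quasi-likelihood test, group as the only term, Benjamini-Hochberg adjustment over 17310 genes, threshold 0.05), after the fits were tested on simulated data. In the simulation 200 genes were changed, and the quasi-likelihood fit called 139 genes, of which 18 were false. The false share of these calls was thus above the threshold of 0.05. The fit found 62% of the 2-fold and 59% of the 1.5-fold changes. Changes as small as those of the members were not simulated. Values are CPM scaled by TMM, and intervals are 95%. The members and gene lists were chosen with earlier results of these data known. Named list genes are those past the threshold, at most the 8 largest per list, with *Acta2*, *Actg2*, *Myocd*, *Srf*, *Mrtfa* and *Mrtfb*, and for *Tagln*, *Tagln2* and *Cnn1* the 3 nearest genes; *Pcsk7*, *Gm48529*, *Thy1* and *Kcnmb1* were named after their values were seen. A list gene that the rule names is not reported here. The other tests were exactTest, DESeq2 1.42.0 and limma 3.58.1, on counts (voom) and on log2(TPM + 1) and log2(TPM + 0.1). The other settings were DESeq2's size factors, no factors beyond library size, no filter, a filter on 3 or more libraries with a CPM of 1 or higher, counts divided by 4, the replicate block and leaving out each library.

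The replicate numbers may pair the samples, though no label or method says so. The main fit leaves such a pairing out, and the replicate block takes it in. Over 10923 genes whose mean was 5 CPM or higher, deviations from the group mean correlated at 0.183, 0.345 and 0.234 between libraries with the same number and at most 0.0899 between others; the pairing comes from these values, since the labels give only numbers. Figures were drawn with Python 3.11.15 and matplotlib 3.10.9. Promoters are from RefSeq (GRCm38.p6).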

Additional observations from a re-analysis of the deposited data

How the results depend on the processing

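*Tagln* and *Cnn2* kept their direction and passed the threshold in all 11 alternative fits with all libraries and in all 6 fits that left out a library, and *Cald1* in 9 and 6 of them. Limma on log2(TPM + 1) and log2(TPM + 0.1) called 70 and 78 genes higher and 88 and 100 lower, against 557 and 565, with 2 and 2 members higher and 0 and 0 lower, and 6 and 6 list genes higher and 1 and 1 lower; limma-voom called 0 members lower. In the fits on TPM *Tagln2* was at 0.085 and 0.087, the reverse of its -0.26, and its log2 ratio in TPM was 0.08 in reference rows and -0.23 in assembled rows; the cause was not tested. Leaving out a library gave 206 to 507 genes higher and 262 to 532 lower, 3 to 5 members higher and 0 to 1 lower, and 7 to 19 list genes higher and 3 to 6 lower; the lowest counts of genes came without control replicate 2. It turned the sign of the log2 fold change of *Myh11* (-0.68 to 0.51, positive without control or KO replicate 2), *Mrtfa* (-0.032 to 0.084) and *Mrtfb* (-0.051 to 0.062), and *Mrtfb* was also at -0.0014 with no filter and -0.0011 with the CPM filter. The replicate block gave 5 members higher and 1 lower, 17 and 4 list genes, and percentages of all genes of 3.74 and 3.86. It took *Synpo2* and *Elk3* off their calls and, besides *Lmod1*, brought past the threshold *Mylk* (adjusted p = 0.0448 by edgeR, against 0.221 without the pairing), *Aoc3* (0.00482 against 0.188) and *Ppp1r12a* (0.0235 against 0.0504), and of the markers *Acta1* (8.08e-04 against 0.117) and *Dcn* (0.0331 against 0.204), named for this change; it changed no other call of a member or list gene. *Myh11* had no value with the CPM filter or with counts divided by 4, and no adjusted p with DESeq2. Counting precision is limited by estimated counts, which are not independent molecules.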

Other observations

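Markers of pericytes, the contractile cells around small vessels, were present only in part. Of 6 such genes 4 were tested and none passed the threshold in the quasi-likelihood test of edgeR, with 0 higher and 2 lower at an unadjusted p under 0.05, and 1 lower by exactTest, 0 by DESeq2 and 1 by limma-voom. *Pdgfrb*, a growth factor receptor also made by myoblasts and fibroblasts, was at 701.4 to 745.5 CPM in the control and 733.0 to 778.8 CPM in the *Phf2* KO libraries, and *Notch3* was at 112.3 to 124.1 CPM and 105.8 to 113.9 CPM. The groups overlapped for both. *Rgs5*, *Kcnj8* and *Abcc9*, which mark pericytes more narrowly, were under 1 CPM in every library. All 6 endothelial markers were also under 1 CPM in every library. *Pdgfrb*, *Notch3*, *Rgs5*, *Kcnj8* and *Abcc9* were named here after their values were seen.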
